A study of Homo sapiens with 6 samples.

Results

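Metallothioneins and the metal-responsive transcription factor MTF1 were followed in WM164 melanoma cells carrying a tethered MAFG and MITF dimer. The genes were chosen by name, as the 9 genes MT1A, MT1E, MT1F, MT1G, MT1M, MT1X, MT2A, MT3 and MTF1 among 58870 genes in the count table, and all 9 were found. MT2A and MT1X were both higher in cells with the dimer, by 1.69-fold and 2.16-fold, MTF1 was 1.24-fold lower, and the other 6 genes were at or near 0 counts in both groups.

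Metallothioneins are small proteins, rich in cysteine, that bind zinc, copper and cadmium through the cysteine thiols and so buffer free metal in the cell. MTF1 is a zinc finger factor that senses a rise in zinc, enters the nucleus and activates metallothionein genes through metal response elements in their promoters. Metallothionein genes are also known to respond to glucocorticoids and to oxidative stress.

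WM164 is an established human melanoma cell line. The control cells (GFP, 3 libraries) expressed green fluorescent protein, and the other cells (T-MGM, 3 libraries) expressed the melanocyte isoform of MITF followed by MAFG, with a flexible linker between them. Per the study's methods, both came from lentiviral vectors with the EF1α promoter and blasticidin selection, so expression was constitutive and both groups carried a vector. No metal or hormone treatment is named in the labels for either group, and nothing in the labels says that the libraries of a group came from separate cultures, so p-values may measure technical spread only.

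Total counts were 35057239 to 38738065 in the GFP libraries and 44577774 to 59250663 in the T-MGM libraries. The 2 genes held by the construct did not mark the libraries labelled T-MGM clearly: MITF was higher by 0.08 (SE 0.02, DESeq2 adjusted p = 4.8e-07) on the log2 scale of normalized counts, and MAFG differed by -0.06 (SE 0.04, DESeq2 adjusted p = 0.236). In TPM the MITF order turned, with 137 to 139 across the GFP libraries and 130 to 135 across T-MGM. The median of expressed genes shifted on that scale as well, by -0.13 to -0.15 in log2 units. The paper reports in a supplementary figure that WM164 cells expressed the dimer, and it reports higher AXL RNA by qRT-PCR. Why the MITF and MAFG counts did not mark the T-MGM libraries more clearly was not tested. All 7 melanocytic markers examined (MLANA, PMEL, TYR, DCT, SOX10, MITF and S100B) were present in every library. DCT, a melanin synthesis enzyme, was called lower in T-MGM (log2 -2.49, SE 0.03). MLANA, TYR and S100B fell by 0.68, 0.35 and 0.21 on the log2 scale, while SOX10 and PMEL rose by 0.11 and 0.05. All 7 markers passed an adjusted p of 0.05, 3 higher (with MITF) and 4 lower, against 38.4% of all genes tested. The part of these changes in the results below was not tested. Of 9 markers of other cell types, 7 (KRT5, KRT14, EPCAM, COL3A1, PTPRC, CD3E and CDH5) had at most 5 counts in any library, and none of the 9 was at 0 in all of them. The sum of the 9 markers was 38.4 to 46.6 normalized counts in GFP and 78.2 to 90.3 in T-MGM, most of it COL1A1, a collagen chain of fibroblasts that is also made by other cells. COL1A1 rose from 24.9 to 58.5 normalized counts as a mean of 3 libraries (DESeq2 adjusted p = 0.000608), and its part in the results below was not tested.

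The coding sequences of MT2A, MT1X and MT1E are shown because reads could be confused between such close paralogs. They are from the GENCODE release 44 models on GRCh38, given 5′ to 3′, with capitals in MT2A at the positions where MT1X differs and capitals in MT1X and MT1E at the positions where each differs from MT2A.
MT2A: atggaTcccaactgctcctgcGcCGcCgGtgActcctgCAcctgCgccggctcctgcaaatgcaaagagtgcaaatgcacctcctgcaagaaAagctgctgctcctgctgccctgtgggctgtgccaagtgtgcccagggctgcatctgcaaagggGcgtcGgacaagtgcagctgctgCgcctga
MT1X: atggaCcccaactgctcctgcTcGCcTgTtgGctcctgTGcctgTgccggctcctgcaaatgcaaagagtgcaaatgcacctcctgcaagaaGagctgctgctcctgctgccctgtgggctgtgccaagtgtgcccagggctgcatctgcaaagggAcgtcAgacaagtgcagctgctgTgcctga
MT1E: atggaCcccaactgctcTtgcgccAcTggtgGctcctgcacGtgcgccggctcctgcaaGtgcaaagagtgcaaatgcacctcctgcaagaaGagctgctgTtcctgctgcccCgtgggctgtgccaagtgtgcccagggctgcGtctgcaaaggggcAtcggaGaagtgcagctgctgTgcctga
MT1X and MT1E each differed from MT2A at 14 of 186 bases, an identity of 92.5%. The coding sequences of MT1A, MT1F, MT1G and MT1M had the same length, with 9 to 19 differences from MT2A. Where a gene had a transcript with a coding sequence of the MT2A length, that transcript was chosen. For MT1E and MT1G it was not the transcript that the annotation marks as canonical, so their equal length follows from this choice. All 7 encode 61 residues, 20 of them cysteines. MT3, also called growth inhibitory factor of the brain, has a longer coding sequence of 207 bases, 68 codons and 20 cysteine codons.

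Reads were 100 bases long, so exact matches of that length between transcripts were counted. MT2A and the other metallothionein members except MT1X shared no window exactly with a transcript of another gene. MT1X shared 67 of its 305 windows with AC026461.1, a non-coding gene that overlaps it on the same strand and had 0 counts in all 6 libraries. The authors kept uniquely aligned reads, so reads that aligned to several places were not counted. Reads shortened by trimming and alignments with mismatches were not covered by the count of exact matches. It therefore cannot exclude that some reads were assigned to the wrong paralog.

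MT2A, the main metallothionein of most human cells, lies on chromosome 16 of GRCh38 (ENSG00000125148.7, chr16:56608584-56609497, plus strand) and has a mature transcript of 401 bases in 3 exons. The GFP libraries held 35556, 39036 and 36853 of its counts, and the T-MGM libraries held 77163, 74531 and 96363. After scaling by the median-of-ratios size factors of DESeq2, the GFP values were 42637, 42265 and 42094 normalized counts, and the T-MGM values 70395, 72716 and 71110. Every T-MGM library was above every GFP library, and the libraries within a group lay close together.

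The MT2A means were 42332 ± 278 and 71407 ± 1189 normalized counts (SD, n = 3), and the log2 fold change of T-MGM over GFP was 0.75 (SE 0.01). The fold change was 1.69, with 95% limits of 1.66 to 1.72, and its DESeq2 adjusted p lay under the smallest value the software holds, so it reads as 0. MT2A passed the adjusted p threshold of 0.05 and stayed under the 2-fold threshold that a call also required here. In TPM, the abundance scaled by transcript length that the authors deposited, the GFP values of MT2A were 4238, 4197 and 4228, and the T-MGM values 6189, 6650 and 6185. On that scale, which corrects for length, MT2A ranked 13th among protein-coding genes in each of the 6 libraries. Without a correction for length, it had 1002 to 1014 CPM (counts scaled to the library total) across the GFP libraries and 1618 to 1672 CPM across the T-MGM libraries.

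MT1X, a metallothionein of the MT1 group that many cell types express, lies at the far end of the same cluster (ENSG00000187193.9, chr16:56682470-56684196, plus strand, mature transcript of 404 bases). Its counts were 206, 193 and 224 for GFP, against 553, 546 and 679 for T-MGM. Normalized, these came to 247, 209 and 256 for GFP, against 504, 533 and 501 for T-MGM. The groups did not overlap, and the second GFP library was the lowest.

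MT1X rose from 237 ± 24.9 to 513 ± 17.4 normalized counts (SD, n = 3), or by 1.11 in log2 units with an SE of 0.11 (DESeq2, adjusted p = 5.18e-24). The 2.16-fold change had 95% limits of 1.87 to 2.50, so MT1X was called at over 2-fold while its lower limit lay under 2. In TPM the GFP libraries had 22, 18.8 and 24.5, and the T-MGM libraries 40.3, 44.7 and 40.2. Its rank in TPM among protein-coding genes went from between 3107 and 3932 in GFP to between 1551 and 1713 in T-MGM.

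**Figure D1:**
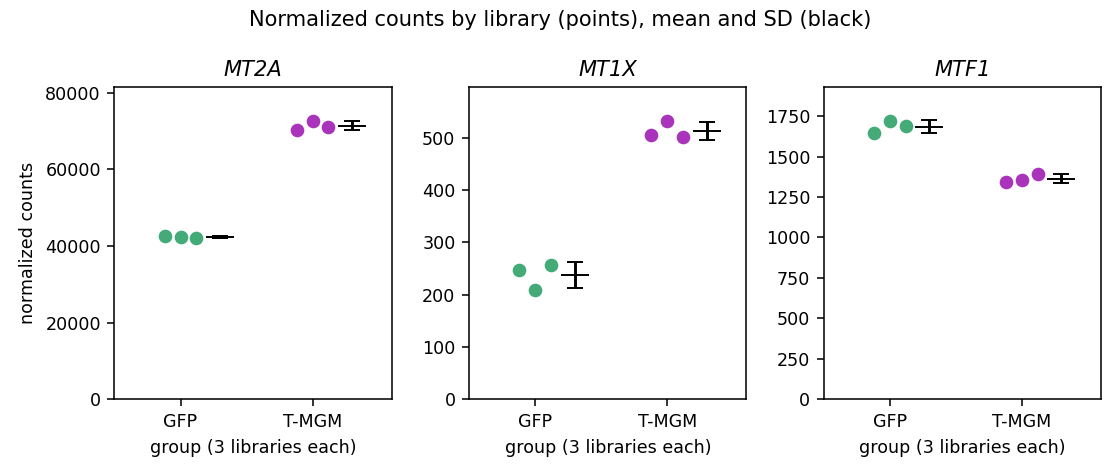
Normalized counts (y axis, DESeq2 size factors, from 0) of MT2A, MT1X and MTF1 in the GFP and T-MGM groups (x axis), with 1 point per library and the mean and SD of 3 libraries in black. The T-MGM points lie above all GFP points for MT2A and MT1X and below them for MTF1.

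MTF1, the metal sensor that activates these genes, lies on chromosome 1 (ENSG00000188786.10, chr1:37809574-37859592, minus strand) and has a mature transcript of 7937 bases in 11 exons. The GFP counts were 1371, 1590 and 1477, against 1469, 1386 and 1888 for T-MGM. Normalized, MTF1 had 1644, 1722 and 1687 for GFP, against 1340, 1352 and 1393 for T-MGM. All T-MGM libraries were below all GFP libraries, in the opposite direction to MT2A and MT1X.

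MTF1 fell from 1684 ± 38.8 to 1362 ± 27.8 normalized counts (SD, n = 3), a log2 difference of -0.31 with an SE of 0.05 (DESeq2, adjusted p = 1.51e-09). The ratio of T-MGM over GFP was 0.809, with 95% limits of 0.758 to 0.864. In TPM, the GFP libraries had 4.07, 4.31 and 4.21, against 3.16, 3.07 and 3.09 for T-MGM. A pseudogene on the opposite strand within MTF1 (AL929472.4) had 0 counts in all libraries.

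These 3 members were the only ones with an adjusted p, so the background matters for reading them. Of 19135 genes with an adjusted p in the whole table, 38.4% passed the threshold, 19.2% higher and 19.2% lower in T-MGM, and the median log2 fold change was 0.00. The share that was also over 2-fold was 4.63%, and 3.26% of genes were called higher, as MT1X was. The share of all genes whose GFP and T-MGM libraries did not overlap was not counted. The separation seen for MT2A, MT1X and MTF1 is therefore a description only. The split of all passed genes depended on scaling: 50% of them were higher with DESeq2 size factors, 38.7% with total counts and 20.8 to 21.8% with limma on TPM. On the TPM scale the median of expressed genes shifted by -0.13 to -0.15, and MT2A and MT1X rose and MTF1 fell on every scale tried. In bulk RNA, a change in the share of cells that express a gene and a change in RNA per cell cannot be told apart.

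The other 6 metallothionein members were at or under 3 counts in every library. MT1A (chr16:56638666-56640087, plus strand), MT1F (chr16:56657731-56660698, plus strand) and MT1M (chr16:56632659-56633981, plus strand), all members of the MT1 group, had 0 counts in all 6 libraries. MT1E (chr16:56625475-56627112, plus strand), also of that group, had 0, 1 and 1 counts in GFP and 0 in every T-MGM library. MT1G (chr16:56666730-56668065, minus strand) had 0 counts in every GFP library and 0, 0 and 1 in T-MGM. MT3 (chr16:56589074-56591088, plus strand), known for its expression in brain, had 0 counts in GFP and 0, 2 and 0 in T-MGM. The 6 genes had 5 counts in all libraries together, their largest TPM value was 0.06, and no fold change is given for them.

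A count of 0 allows up to 3 counts, which is 0.0506 to 0.0856 CPM in these libraries and covers counting error only. That floor is 0.00311 to 0.00844% of the MT2A counts of the same library. Most of these genes have canonical mature transcripts near the MT2A length, 396 to 425 bases. The canonical transcript of MT1E has 746 bases and is not the one whose coding sequence is shown above. Expression of these 6 genes below the floor was not detectable at this depth.

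The table held 12 further metallothionein genes and pseudogenes. MT4, a metallothionein of stratified epithelia, and MT1B, MT1H, MT1HL1, MT1L, MT1CP, MT1DP, MT1P1, MT1P3 and MT1XP1 had 0 counts in all libraries. MT1JP had 1 count in the first GFP library. MT2P1, a processed pseudogene on chromosome 4, had 0 counts in GFP and 5, 1 and 0 in T-MGM. Of the 18 metallothionein genes and pseudogenes other than MT2A and MT1X, 13 had 0 counts in every library, and the largest count was 5.

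**Figure D2:**
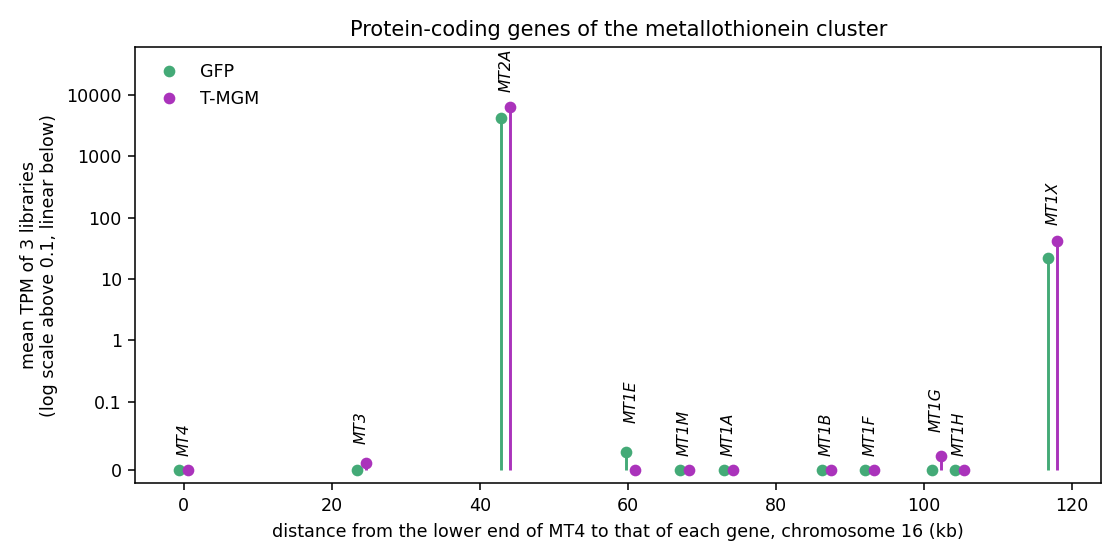
Mean TPM of 3 libraries (y axis, log scale above 0.1 and linear below) for the protein-coding genes of the metallothionein cluster, placed by distance from MT4 along chromosome 16 (x axis, kb), with GFP and T-MGM side by side. MT2A and MT1X stand far above the genes between and around them, which lie at or near 0 in both groups.

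The expressed genes did not sit together in the cluster. It spans 119.1 kb (chr16:56565073-56684196), and MT2A lies between MT3 and MT1E while MT1X is the last gene, with the silent MT1 genes between them. MT2A carried nearly all of the metallothionein RNA. In TPM it was 192.6, 223.9 and 172.4 times as high as MT1X for GFP, against 153.6, 148.9 and 153.9 times for T-MGM.

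Summed over the 8 metallothionein members, the level was 42884, 42475 and 42351 normalized counts for GFP, against 70900, 73251 and 71612 for T-MGM. The sum was 42570 ± 279 in GFP and 71921 ± 1206 in T-MGM (SD, n = 3), a log2 ratio of 0.76. Summed in TPM it was 4243 ± 23.4 and 6383 ± 270, a log2 ratio of 0.59. The rise of the family was thus that of MT2A in size, on both scales.

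The share of MT1X in the summed counts was 0.576% (exact binomial 95% limits 0.50 to 0.660), 0.492% (0.425 to 0.566) and 0.604% (0.528 to 0.688) in the GFP libraries. In T-MGM it was 0.712% (0.654 to 0.773), 0.727% (0.668 to 0.791) and 0.700% (0.648 to 0.754). The means were 0.557% and 0.713%, and every T-MGM library was above every GFP library. An exact 2-sided permutation test of the difference gave p = 0.1, which is the smallest value that 3 libraries against 3 allow, so the design cannot pass 0.05 for this share.

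Promoters of MT2A, MT1X and MTF1 are shown because MTF1 acts through metal response elements, and the 2 metallothionein genes rose together. The sequences are from RefSeq on GRCh38.p14, each from 250 bases before to 50 bases after the annotated start, 5′ to 3′ on the strand of the gene. They cover chr16:56608334-56608633 (plus strand) for MT2A, chr16:56682220-56682519 (plus strand) for MT1X and chr1:37859543-37859842 (minus strand) for MTF1. Capitals mark the core of the metal response element, TGCACNC or TGCGCNC, on either strand.
MT2A: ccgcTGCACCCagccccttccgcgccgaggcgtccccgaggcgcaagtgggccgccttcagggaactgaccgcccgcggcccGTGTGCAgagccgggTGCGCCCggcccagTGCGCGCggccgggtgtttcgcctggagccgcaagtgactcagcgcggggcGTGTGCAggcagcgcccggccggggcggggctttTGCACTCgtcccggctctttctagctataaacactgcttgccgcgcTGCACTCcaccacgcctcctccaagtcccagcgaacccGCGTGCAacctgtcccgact
MT1X: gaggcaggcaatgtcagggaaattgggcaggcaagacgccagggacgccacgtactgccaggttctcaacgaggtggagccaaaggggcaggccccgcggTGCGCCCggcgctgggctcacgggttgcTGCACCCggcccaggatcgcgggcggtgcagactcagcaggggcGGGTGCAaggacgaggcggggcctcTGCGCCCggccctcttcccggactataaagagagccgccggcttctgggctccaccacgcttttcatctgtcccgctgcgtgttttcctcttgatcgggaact
MTF1: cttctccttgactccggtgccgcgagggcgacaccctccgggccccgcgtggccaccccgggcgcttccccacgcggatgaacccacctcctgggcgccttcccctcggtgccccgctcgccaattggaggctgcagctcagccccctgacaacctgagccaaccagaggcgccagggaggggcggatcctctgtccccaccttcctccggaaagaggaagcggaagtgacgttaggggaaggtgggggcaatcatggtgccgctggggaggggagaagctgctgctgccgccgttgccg
The MT2A window held 8 metal response element cores and the MT1X window 4, while the MTF1 window held 0. Of 35116 promoter windows of the same length, 29.6% held at least 1 core and 0.601% held at least 4. The core of the antioxidant response element, TGACNNNGC, bound by dimers of small MAF and CNC factors, matched once in MT2A (TGACTCAGC, first base at -104) and once in MT1X (GCAATGTCA on the opposite strand, at -243). That core was in 13.3% of all windows. The E-boxes CACGTG and CATGTG, letters that MITF is known to bind, were in none of the 3 windows and in 7.26% and 11.1% of all windows. No match of these motifs overlapped another in the 3 windows. A match of letters is a description and not evidence of binding.

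Motif letters did not separate expressed from silent genes of the cluster. The window of MT1H, with 0 counts in every library, held 8 metal response element cores and 1 CACGTG. The windows of MT1B and MT4, both also at 0 counts, held 3 cores each, as 2.3% of all windows held at least 3. MT1B also held 1 antioxidant response element core and MT4 held 1 CATGTG. Promoters of MT1A, MT1E, MT1F, MT1G, MT1M and MT3 were not analysed here.

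**Figure D3:**
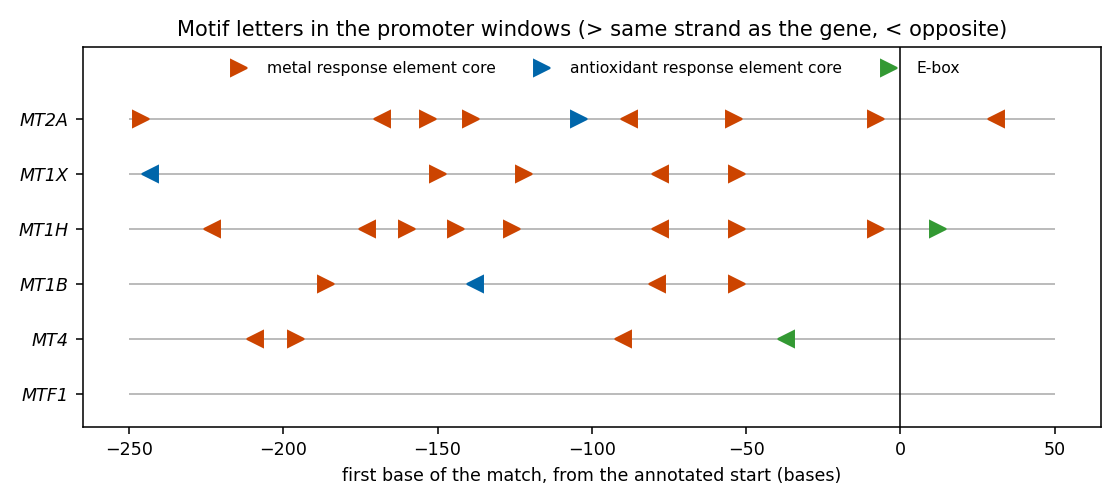
Positions of motif letters (x axis, bases from the annotated start) in the promoter windows of MT2A, MT1X, MTF1 and the silent genes MT1H, MT1B and MT4, with arrowheads giving the strand of the match relative to the gene. MT2A and MT1H each hold 8 metal response element cores, MT1X holds 4, and MTF1 holds none of the motifs.

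Genes that move or buffer metals were examined beside the metallothioneins. Zinc exporters of the SLC30 family carry zinc out of the cytosol. Of 10 listed, 8 had an adjusted p, and 4 of these were lower in T-MGM, 0 higher and 4 did not pass, with a median log2 fold change of -0.18 against 0.00 over all genes tested. The share of exporters that passed was 50% against 38.4% of all genes tested, and 19.2% of all genes tested were lower. SLC30A1, the exporter of the plasma membrane and a known MTF1 target, fell from 1701 ± 31.1 to 1502 ± 37.9 normalized counts (log2 -0.18, SE 0.05, DESeq2 adjusted p = 0.000601). SLC30A7 and SLC30A6, exporters of the Golgi, fell by 0.17 (SE 0.03, adjusted p = 7.62e-07) and 0.19 (SE 0.04, adjusted p = 1.11e-05) on the log2 scale. With offsets for GC content and length these 3 exporters no longer passed, at -0.06, 0.00 and -0.03, and 1 exporter passed in place of 4.

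Zinc importers of the SLC39 family bring zinc into the cytosol. Of 14 listed, 11 had an adjusted p, 4 were higher, 4 lower and 3 did not pass, with a median of -0.06 on the log2 scale. SLC39A10, a plasma membrane importer that MTF1 is known to repress, fell from 3265 ± 72.0 to 2477 ± 56.4 normalized counts (log2 -0.40, SE 0.04, DESeq2 adjusted p = 1.06e-27). SLC39A6, an importer of the plasma membrane, fell by 0.55 (SE 0.06) on the log2 scale, and SLC39A8, a carrier of zinc and manganese, rose by 0.51 (SE 0.09). The share of importers that passed, 72.7%, stood against 38.4% of all genes tested, and the list moved in both directions.

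Of 5 other genes that MTF1 is known to regulate, 4 had an adjusted p, 1 was higher, 2 were lower and 1 did not pass, on a background of 38.4% of all genes tested that passed, 19.2% in each direction. The 2 lower genes are SLC30A1 and SLC39A10, described above. SELENOH, a selenoprotein of the nucleus, rose by 0.24 in log2 units (SE 0.04, DESeq2 adjusted p = 9.51e-09), and it did not pass on the TPM scale (0.07, adjusted p = 0.424 with limma).

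Copper handling genes showed no common direction. Of 16 listed, 14 had an adjusted p, 2 were higher, 3 lower and 9 did not pass, so 35.7% passed against 38.4% of all genes tested. SLC31A1, the main copper importer, fell by 0.37 (SE 0.04), SCO1, a copper chaperone of mitochondria, fell by 0.28 (SE 0.04), and STEAP3, a metal reductase, rose by 0.69 (SE 0.11) on the log2 scale. The SCO1 and STEAP3 changes did not pass with limma on unfiltered TPM, at -0.22 and 0.30.

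Many, though not all, of the metal and heat stress genes listed are known to be induced by cadmium and other metals. Of 14 listed, 2 were higher, 8 lower and 4 did not pass, with a median log2 fold change of -0.16. The share that passed was 71.4%, against 38.4% of all genes tested, and 19.2% of all genes tested were lower. HSPA6, an inducible member of the HSP70 chaperones with close paralogs, was called lower, from 275 ± 32.2 to 127 ± 3.38 normalized counts (log2 -1.11, SE 0.14, DESeq2 adjusted p = 1.36e-13). HMOX1, the heme oxygenase that cadmium and oxidants induce, averaged 666 ± 16.2 (GFP) and 646 ± 39.7 (T-MGM) normalized counts and did not pass (DESeq2 adjusted p = 0.731). HMOX1 is named outside the rule for named genes, after its values were seen. TXNRD1, SRXN1, GCLM and SLC7A11 of the same list passed and fell by 0.50, 0.37, 0.29 and 0.74 on the log2 scale. BAG3 and HSF1, the 2 higher genes, rose by 0.26 and 0.16.

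**Figure D4:**
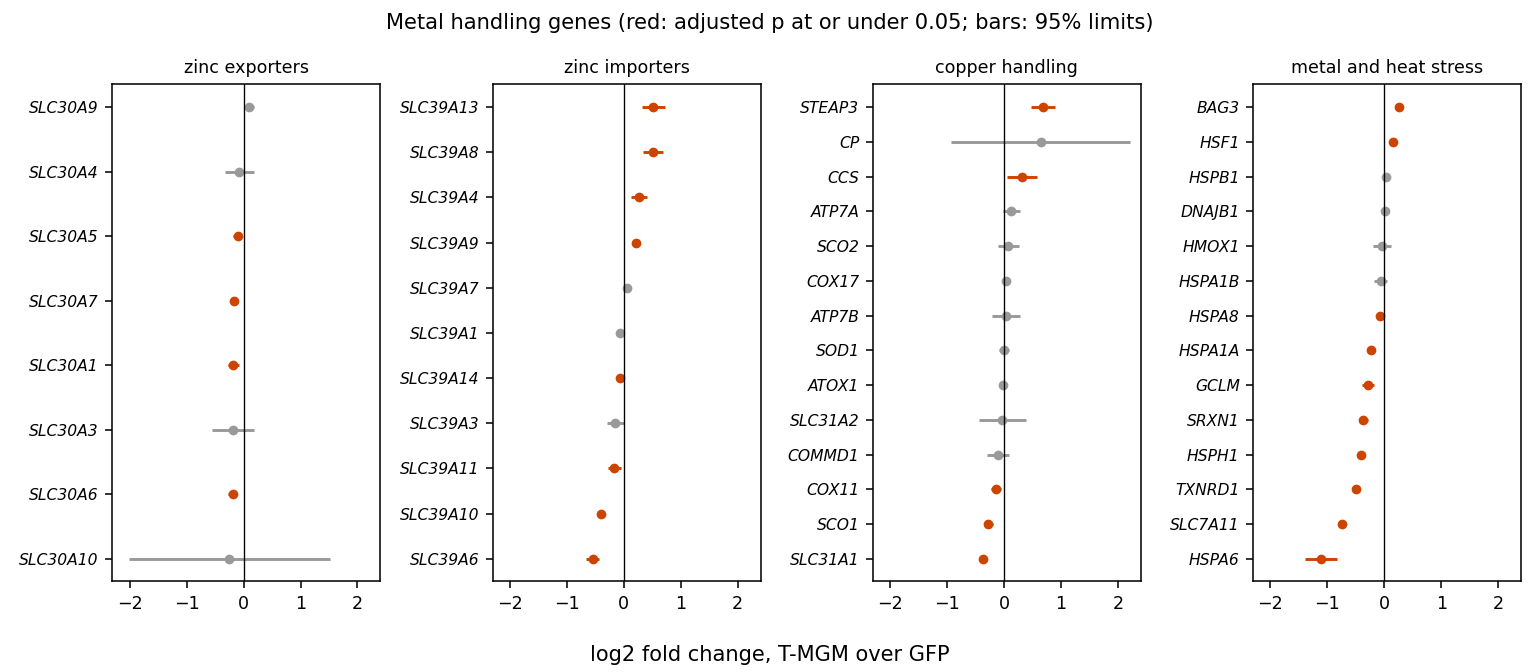
Log2 fold change of T-MGM over GFP (x axis, DESeq2) with 95% limits for genes with an adjusted p in 4 lists, zinc exporters, zinc importers, copper handling and metal and heat stress, with genes that passed an adjusted p of 0.05 in red. No zinc exporter passed in the upward direction, the importers and copper genes moved both ways, and HSPA6 is the only gene past 2-fold among those that passed.

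Glucocorticoid-responsive genes were examined because the metallothionein genes are known targets of the glucocorticoid receptor. Of 10 listed, 9 were in the table and 8 had an adjusted p, of which 6 were higher and 2 lower, with a median log2 fold change of 0.33. CEBPD, a transcription factor of the acute phase response, was called higher, from 144 ± 15.2 to 331 ± 15.8 normalized counts (log2 1.20, SE 0.13, DESeq2 adjusted p = 6.51e-18). KLF9 and SGK1, the 2 lower genes, fell by 0.26 and 0.18 in log2 units. Besides CEBPD, DUSP1, ERRFI1, TSC22D3, NR3C1 and FKBP5 rose by 0.59, 0.54, 0.49, 0.16 and 0.15. All 8 passed, against 38.4% of all genes tested, 19.2% in each direction. Only 1 was called, where 4.63% of all genes tested were called and 3.26% were called higher. No hormone treatment differed between the groups by the labels.

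Genes beside the metallothionein cluster were examined to see whether the rise extended along the chromosome. Within 500 kb on either side, 37 other genes were annotated, and 18 had an adjusted p. Of these, 4 were higher, 1 was lower and 13 did not pass, so 27.8% passed against 38.4% of all genes tested, and the median log2 fold change was 0.17. HERPUD1, a factor of protein degradation at the endoplasmic reticulum (chr16:56932142-56944864), rose by 0.23 in log2 units (SE 0.04, DESeq2 adjusted p = 9.97e-08). NLRC5, an activator of MHC class I genes (chr16:56989485-57083531), rose by 0.82 (SE 0.18, adjusted p = 2.12e-05). BBS2, a part of the complex that moves proteins to the cilium (chr16:56465640-56582667, overlapping MT4), rose by 0.31 (SE 0.09, adjusted p = 0.000892). None of these 3 passed with limma on TPM plus 1, where adjusted p was 0.0537 for HERPUD1, 0.54 for NLRC5 and 0.198 for BBS2.

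The genes with a pattern most like MT2A over the 6 libraries were PLOD2, a collagen lysyl hydroxylase (Pearson's r = 0.9999, log2 0.72), PIEZO1, a mechanically gated ion channel (r = 0.9998, log2 0.39), and HIST1H3B, a replication-dependent histone (r = 0.9998, log2 0.77). These were the closest of 11653 genes compared, and 477 genes had r over 0.99. The 6 libraries form 2 groups, which MT2A and each of these genes separate.

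**Figure D5:**
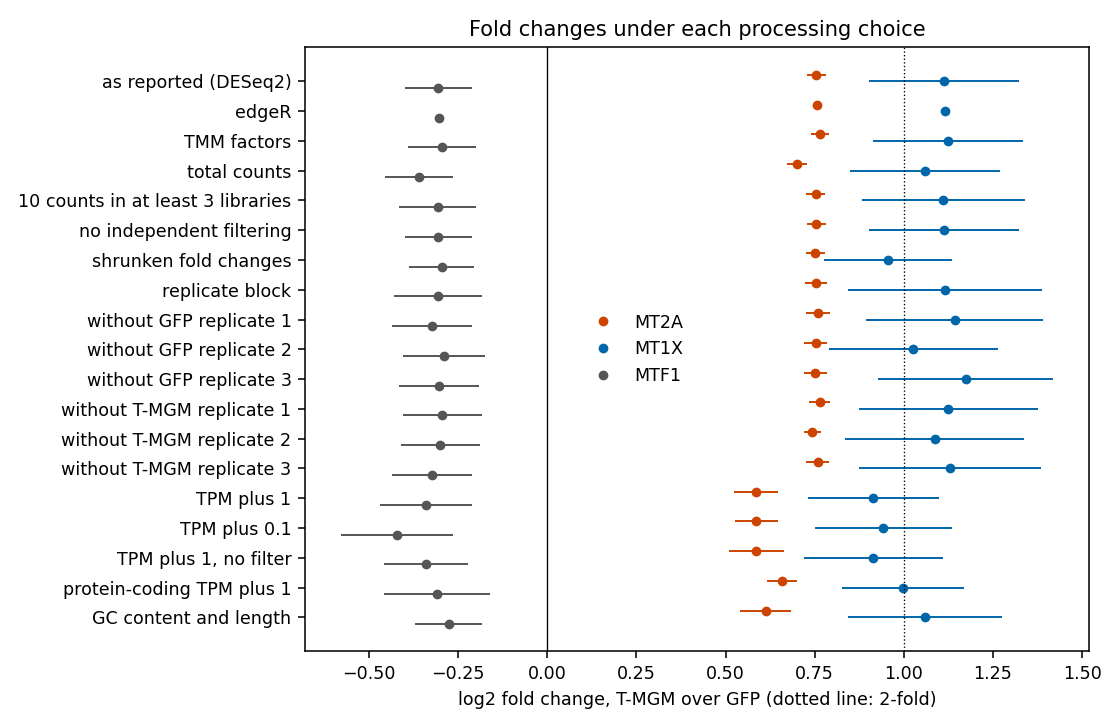
Log2 fold change of T-MGM over GFP (x axis) of MT2A, MT1X and MTF1 under each processing choice (y axis), with 95% limits except for edgeR, which gives none here, and a dotted line at 2-fold. MT2A lay between 0.59 and 0.77, MT1X between 0.91 and 1.17, and MTF1 between -0.42 and -0.28 over the 18 alternatives.

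The direction of the 3 members held in all 18 alternatives, and each passed an adjusted p of 0.05 in each of them. The largest adjusted p over the alternatives was 0.000838 for MT2A, 0.00317 for MT1X and 0.0169 for MTF1. MT1X lay under 2-fold on the TPM scale, at 0.91 to 1.00, and with shrunken fold changes, at 0.96.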

How the data were processed

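RNA of 6 libraries was sequenced, 3 GFP and 3 T-MGM, grouped by the sample titles. Per the submitters' processing notes and the study's methods, the authors trimmed reads with cutadapt 1.8.1, aligned them to GRCh38 with STAR 2.7.7a and counted uniquely aligned reads with featureCounts, whose version is not given in the sources used here. The counts were deposited unnormalized, as whole numbers, and the TPM values that the authors deposited were made with RSEM 1.3.0. The labels and the methods name kits without and with strand information, so overlapping genes are uncertain. Floors and binomial limits cover counting error only.

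Counts were tested over the whole table with DESeq2 1.42.0 in R 4.3.3 (median-of-ratios size factors, 2-sided Wald test, no shrinkage). Genes passed when the p-value, adjusted by the Benjamini-Hochberg method, was 0.05 or less, and were called when also over 2-fold. Alternatives used edgeR 4.0.16, TMM or total counts, a minimum of 10 counts in 3 libraries, no independent filtering, shrunken fold changes, a replicate block, each library left out, GC content and length offsets (lowess span 0.3), and limma 3.58.1 on TPM plus 1 or 0.1, with and without a minimum of 0.5. TPM rescaled to protein-coding genes was added after seeing the data. Steps were tested on simulated data.

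The members and lists were chosen with earlier results of these data known. Named genes were the members, the other metallothionein genes, called genes of each list or otherwise the 3 with the smallest adjusted p, the 3 genes beside the cluster with the smallest adjusted p, and the 3 most correlated with MT2A. Further genes of the lists are named to show both directions, after their values were seen. Positions are from GENCODE release 44, which held 99.4% of the identifiers, and promoters from RefSeq on GRCh38.p14, which matched 3 of 9 members. Libraries of a group differed beyond counting noise, so none was counted as a duplicate.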

Additional observations from a re-analysis of the deposited data

How the results depend on the processing

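MT2A, MT1X and MTF1 kept their direction and passed in all 18 alternatives. No member exceeded 2-fold (0 in place of 1) with shrunken fold changes, TPM plus 1, TPM plus 0.1, unfiltered TPM plus 1 or protein-coding TPM, the last chosen after seeing the data. The MT1X log2 fold change without 1 library ran from 1.03, without GFP replicate 2, to 1.17. The summed metallothionein log2 ratio was 0.76 in normalized counts and 0.59 in TPM.

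With GC content and length offsets, 1 zinc exporter passed in place of 4 and 8 genes beside the cluster in place of 5. Beside the cluster, 3 passed with TPM plus 1 and with TPM plus 0.1, 1 with unfiltered TPM and 1 with protein-coding TPM. For copper handling genes, 5 passed, against 8 with TPM plus 1 or 0.1, 3 with the replicate block and 3 to 5 with 1 library left out (3 without GFP replicate 1 and without T-MGM replicate 3). Among all genes tested, 885 were called, against 207 with shrunken fold changes, 133, 369 and 126 with TPM and 158 with protein-coding TPM. The cause of these differences was not tested, apart from the lowered fold changes of shrinkage itself.

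No pairing by replicate number was seen: the deviations of same-numbered libraries correlated at -0.01, -0.06 and 0.03. Those of differently numbered libraries ran from -0.09 to 0.09. Deviations from a mean of 3 libraries depend on each other, so this check cannot exclude libraries prepared in pairs. With the replicate block, the log2 fold changes were 0.75 for MT2A, 1.11 for MT1X and -0.31 for MTF1, all past the threshold. Depth limits what can be said of the 6 members at or under 3 counts.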
